A study of Mus musculus with 12 samples.

Results

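The 8 genes described here, Th, Ddc, Dbh, Pnmt, Gch1, Slc18a1, Slc18a2 and Cyb561, encode the enzymes that make catecholamines in the chromaffin cells of the adrenal medulla, the supply of their cofactors and the transporters that load the product into secretory vesicles. They were taken by gene symbol from the platform's annotation, not by their values. Each was read by 1 probe, and all 8 were among the 17882 named genes and 21513 features that could be tested. RNA of adrenal glands from mice of transgenic line #56, which carry Ftz-F1 (Nr5a1, the gene of the nuclear receptor SF-1) on a YAC, was compared on 2-colour arrays with RNA of a wild-type littermate matched for sex and age. In the first group 3 heterozygous transgenic mice with 1 transgene copy were 10 days old (pairs 11 and 13 male, pair 15 female). In the second, 3 homozygous mice with 2 copies were 4 months old (pairs 1 and 3 male, pair 5 female). Every pair consisted of 1 transgenic and 1 wild-type mouse and was measured on 2 arrays with the dyes exchanged, so the 12 arrays hold 12 mice. All transgenic animals came from a single line, and age and copy number changed together, so their effects cannot be told apart.

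Catecholamine synthesis starts from tyrosine. Tyrosine hydroxylase (Th) makes L-DOPA with tetrahydrobiopterin as cofactor, whose own synthesis is begun by GTP cyclohydrolase 1 (Gch1). DOPA decarboxylase (Ddc) forms dopamine, dopamine beta-hydroxylase (Dbh) turns it into noradrenaline inside the vesicle, and phenylethanolamine N-methyltransferase (Pnmt) forms adrenaline in the cytosol. The vesicular monoamine transporters (Slc18a1, Slc18a2) fill the vesicle against a proton gradient, and cytochrome b561 (Cyb561) carries electrons across its membrane to regenerate the ascorbate that Dbh consumes. Pnmt is known to depend on glucocorticoid from the surrounding cortex, the tissue in which SF-1 acts.

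All values are log2 ratios of the 2 samples of a pair, after removal of the dye trend of each array and averaging of its 2 arrays, with the sign in which they were deposited. The sources used here do not say whether transgenic stands over wild type or the inverse, so a positive ratio means higher in the transgenic mouse under the first reading and lower under the second. The arrays of a pair ran the same way: with the mean of each dye orientation taken off, they correlated at 0.24 to 0.67 over all features, against -0.27 to 0.12 for the 30 combinations of opposite-dye arrays from different pairs. Nr5a1 itself was at -0.57, -0.65 and -0.79 in pairs 11, 13 and 15 and at -0.46, 0.11 and -0.22 in pairs 1, 3 and 5. It was thus negative in 5 of 6 pairs, with a mean of -0.43 ± 0.33 (SD, n = 6; limma, adjusted p of 0.104). Its arrays disagreed in sign in pair 1 (0.06 with the transgenic sample in Cy3, -0.97 in Cy5) and in pair 3 (0.43 and -0.20). Read as transgenic over wild type, the negative pair values would place the transgene's own gene lower in the transgenic mice, and read the other way, higher. Whether its probe detects the transgene's transcript was not tested.

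Pnmt, Cyb561 and Th had the most positive ratios of the 8 genes, with means of 1.15, 0.83 and 0.79 over the 6 pairs, that is 2.22-, 1.78- and 1.73-fold between the samples of a pair. Slc18a1 (0.44), Slc18a2 (0.37), Dbh (0.23), Ddc (0.21) and Gch1 (0.08) followed, and all of these but Slc18a2 had a mean below the SD of their pairs. The mean was positive for all 8 genes, with a median of 0.41, against 47.1% of all features positive and a median of -0.01. None of the 8 passed an adjusted p of 0.05 in limma, where 0.0558% of all features did, and none in the ordinary linear model. At an unadjusted limit of 0.05, 5 of the 8 passed with a positive ratio, against 7.52% of all features. In the ordinary linear model 4 of the 8 did so, against 1472 of 21513 features. Pnmt, Cyb561 and Slc18a2 (3 of 8) were positive in 6 of 6 pairs, which held for 5.67% of all features. Cyb561 and Slc18a2 (2 of 8) were positive on 12 of 12 arrays, against 1.27%.

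**Figure D1:**
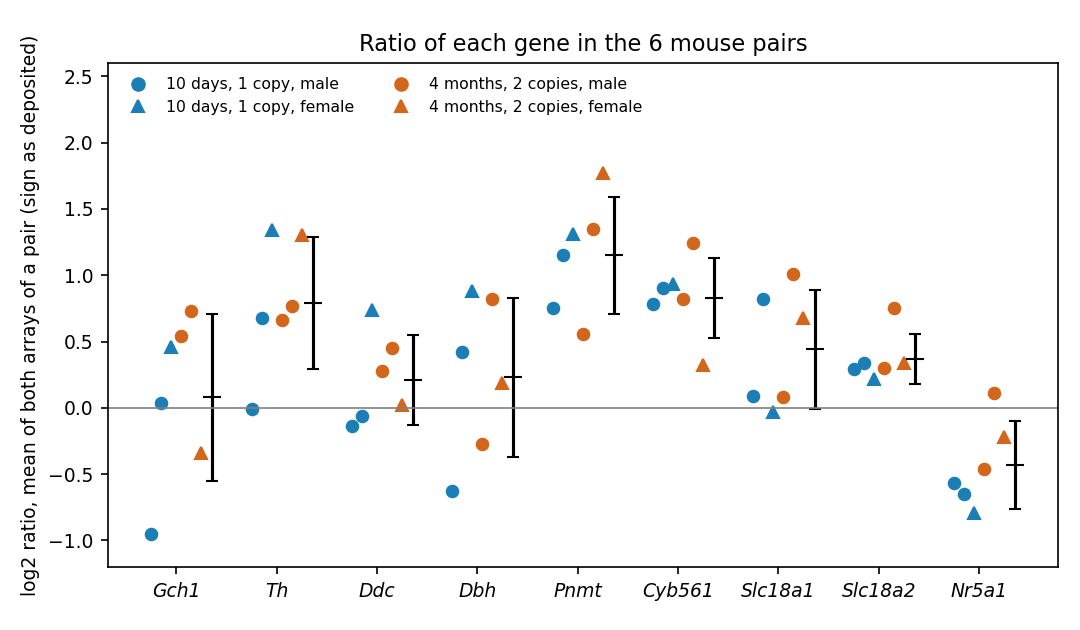
Log2 ratio (vertical axis) of each of the 8 genes and of Nr5a1 (horizontal axis) in each of the 6 pairs, as the mean of both arrays; blue marks 10 days with 1 copy, orange 4 months with 2 copies, circles male and triangles female pairs, and black bars the mean ± SD over 6 pairs. All 6 pairs lie above 0 for Pnmt, Cyb561 and Slc18a2, and Gch1 and Dbh spread to both sides of 0.

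Gch1, the entry to cofactor synthesis, was at -0.95, 0.04 and 0.46 in pairs 11, 13 and 15 and at 0.54, 0.73 and -0.34 in pairs 1, 3 and 5. The pairs pointed both ways within each age, and the mean was 0.08 ± 0.63 (SD, n = 6; adjusted p of 0.888 in limma). With array medians in place of loess the mean was -0.07. This spread came from the pairs and not from the arrays: the 2 arrays of pair 11 gave -0.98 and -0.91 and those of pair 3 gave 0.64 and 0.81, and their median difference of 0.14 was the smallest of the 8 genes.

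Th, the rate-limiting enzyme, was at -0.01, 0.68 and 1.34 in pairs 11, 13 and 15 and at 0.66, 0.77 and 1.30 in pairs 1, 3 and 5. Only pair 11 was not positive, and 11 of 12 arrays were. The fit gave 0.79 (SE 0.17, adjusted p of 0.104 in limma). The highest ratios were those of the 2 female pairs, which stood above all 4 male pairs for Th alone among the 8 genes, a pattern found in 7.11% of all features. The Th array with the transgenic sample in Cy3 was above its swapped array in 6 of 6 pairs, at a mean of 1.06 ± 0.51 against 0.51 ± 0.50 (SD, n = 6).

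Ddc, the second enzyme, was at -0.14, -0.06 and 0.74 at 10 days and at 0.28, 0.45 and 0.02 at 4 months. Of the 10-day pairs only pair 15 was clearly positive, and the overall mean of 0.21 (SE 0.13) had an adjusted p of 0.471 in limma. Dbh, which makes noradrenaline, was at -0.63, 0.42 and 0.88 at 10 days and at -0.27, 0.82 and 0.19 at 4 months. Its ratio was negative in pairs 11 and 1 on both arrays, and the mean was 0.23 ± 0.60 (SD, n = 6; adjusted p of 0.632 in limma).

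Pnmt, which makes adrenaline, was at 0.75, 1.15 and 1.31 at 10 days and at 0.56, 1.35 and 1.77 at 4 months. Each pair was positive, and only 0.0325% of all features had a more positive mean. The fit gave 1.15 (SE 0.15) with an adjusted p of 0.0654 in limma, just above the threshold. The lowest pair, pair 1, averaged arrays that disagreed, at 1.20 and -0.08, while the arrays of pair 11 gave 0.76 and 0.74 and those of pair 5 gave 1.70 and 1.84.

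Cyb561, the electron carrier of the vesicle membrane, was at 0.78, 0.90 and 0.93 at 10 days and at 0.82, 1.24 and 0.32 at 4 months. The 10-day values lay within a narrow band (SD 0.08), and the fit over all pairs gave 0.83 (SE 0.11, adjusted p of 0.0654 in limma). Its arrays differed with the dye in the opposite sense to Th, since the array with the transgenic sample in Cy5 was higher in 6 of 6 pairs, with means of 1.10 ± 0.34 and 0.57 ± 0.32 (SD, n = 6). Its spots were among the brightest of the array, at percentile 99.1 of recovered signal, and the others lay between percentiles 60.2 and 91.7.

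The vesicular transporters are paralogs, Slc18a1 being the endocrine form and Slc18a2 the form shared with neurons. Slc18a1 was at 0.09, 0.82 and -0.03 at 10 days and at 0.08, 1.01 and 0.68 at 4 months. It was thus near 0 in pairs 11, 15 and 1 and clearly positive in pairs 13, 3 and 5, with a mean of 0.44 (SE 0.15, adjusted p of 0.244 in limma). Slc18a2 was at 0.29, 0.34 and 0.22 at 10 days and at 0.30, 0.75 and 0.34 at 4 months. It had the least spread of the 8 genes, 0.37 ± 0.19 (SD, n = 6; limma, adjusted p of 0.11). The difference between the transporters, 0.07 ± 0.33 (SD, n = 6), was positive in 3 of 6 pairs.

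**Figure D2:**
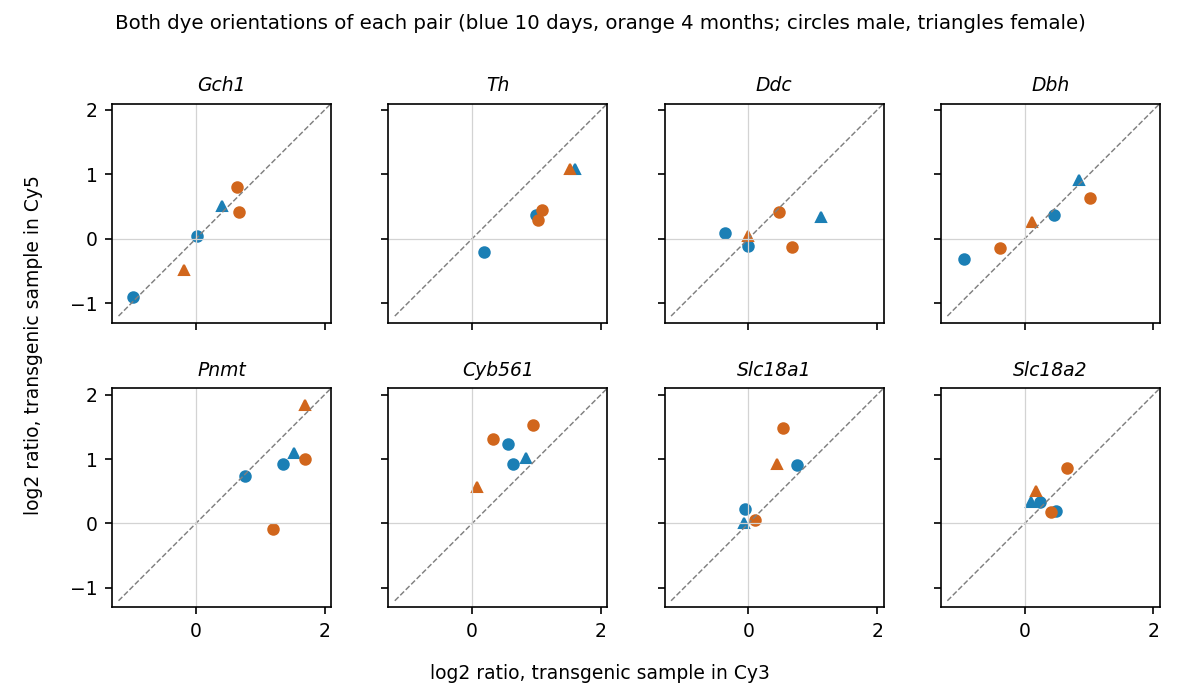
Log2 ratio of the array with the transgenic sample in Cy3 (horizontal axis) against that of the swapped array with it in Cy5 (vertical axis), 1 panel per gene and 1 point per pair; the dashed line marks equal values. All Th points fall below the line and all Cyb561 points above it, and pair 1 of Pnmt lies at 1.20 and -0.08.

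The 2 dye orientations also carry different dates in their labels, so dye and date cannot be told apart. Averaging both orientations cancels a constant dye effect. For the 8 genes the median difference between the arrays of a pair ran from 0.14 to 0.57, and 3 of them exceeded the median of all features, 0.32. Within 1 orientation the mean over 6 pairs stayed positive for each of the 8 genes: the lowest were Gch1 at 0.09 and Dbh at 0.18 with the transgenic sample in Cy3, and Gch1 at 0.06 and Ddc at 0.11 with it in Cy5. Pnmt was at 1.37 ± 0.36 and 0.92 ± 0.62 (SD, n = 6).

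The sequence before the start of the gene is shown for the 3 successive enzymes that lead from tyrosine to noradrenaline. Their mean ratios were 0.79 for Th, 0.21 for Ddc and 0.23 for Dbh. Capitals mark matches to short motifs of factors known to act on catecholamine genes or, for SF-1, given by the transgene. A link between motifs and ratios was not tested. The 250 bases before the start were read 5′ to 3′ from the RefSeq promoter table (GRCm38.p6), which matched 5 of the 8 genes with 6 starts. Pnmt, Slc18a1 and Cyb561 had no entry. The windows lie at chr7:142899996-142900245 (minus strand) for Th, at chr11:11898145-11898394 (minus strand) for the upstream start of Ddc and at chr2:27165257-27165506 (plus strand) for Dbh. Ddc also has a downstream start, whose window is not printed. Which of its starts is used in the adrenal was not tested.

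Th: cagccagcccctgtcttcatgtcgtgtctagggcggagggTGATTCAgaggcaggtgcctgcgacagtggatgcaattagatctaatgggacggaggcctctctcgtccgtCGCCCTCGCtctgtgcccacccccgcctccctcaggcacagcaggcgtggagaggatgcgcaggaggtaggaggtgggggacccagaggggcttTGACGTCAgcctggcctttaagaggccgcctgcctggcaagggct

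Ddc: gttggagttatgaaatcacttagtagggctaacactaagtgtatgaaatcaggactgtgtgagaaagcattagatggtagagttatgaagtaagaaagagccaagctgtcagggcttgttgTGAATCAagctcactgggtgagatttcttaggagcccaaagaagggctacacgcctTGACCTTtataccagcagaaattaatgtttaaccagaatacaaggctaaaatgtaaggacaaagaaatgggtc

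Dbh: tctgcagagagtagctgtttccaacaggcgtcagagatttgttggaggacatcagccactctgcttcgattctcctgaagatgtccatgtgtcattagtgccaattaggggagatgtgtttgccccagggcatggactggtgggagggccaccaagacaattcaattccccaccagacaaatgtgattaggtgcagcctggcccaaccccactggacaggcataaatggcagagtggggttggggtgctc

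The Th window held the cAMP response element TGACGTCA from 45 to 38 bases before the start, a match to the AP-1 site TGANTCA from 210 to 204 and, on the other strand, one to the Egr1 site GCGNGGGCG from 139 to 131. Over all 32851 promoters of the table, 1.55% held the first motif, 6.75% the second and 4.7% the third in the same window on either strand, and none of the 3 matches overlapped. The SF-1 half-site AAGGTCA occurred in 1 of the 6 windows, on the other strand of the Ddc window from 73 to 67 bases before the start, against 4.08% of all promoters. The upstream Ddc window also held an AP-1 match from 129 to 123. Neither these motifs nor the AP-2 site GCCNNNGGC, present in 13.7% of promoters, occurred in the windows of Dbh, Gch1, Slc18a2 and the downstream start of Ddc. A match is a string of letters and not a measured binding site.

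The genes did not share 1 ratio within a pair. In pair 5 they ran from -0.34 for Gch1 to 1.77 for Pnmt and in pair 11 from -0.95 for Gch1 to 0.78 for Cyb561, while in pair 3 all 8 were positive, from 0.45 for Ddc to 1.35 for Pnmt. Of the 28 differences between 2 of the genes, 10 had the same sign in 6 of 6 pairs. In all 10 the higher gene was Pnmt, Cyb561 or Th, so they are not separate results. How often 2 other genes of the array differ in this way was not computed. Pnmt stood above Dbh by 0.91 ± 0.47, above Ddc by 0.93 ± 0.51, above Gch1 by 1.07 ± 0.75, above Slc18a2 by 0.78 ± 0.43 and above Slc18a1 by 0.71 ± 0.42 (SD, n = 6). Cyb561 stood above Ddc by 0.62 ± 0.32, and Th above Ddc by 0.57 ± 0.41 (SD, n = 6). The other 3 were Cyb561 above Dbh and Gch1, and Th above Gch1. For each of the 10 the two-sided exact sign-flip test gave p = 0.0312, the smallest that 6 pairs allow. Any difference with the same sign in 6 of 6 pairs gives this value, so the test adds nothing to the count. The adjusted p of the sign-flip test over the 28 differences was 0.0874, so none passed. Pnmt and Th did not separate in this way, at 0.36 ± 0.35 (SD, n = 6) with 4 of 6 pairs positive.

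At 10 days with 1 copy, Pnmt was at 1.07 ± 0.29, Cyb561 at 0.87 ± 0.08, Th at 0.67 ± 0.68 and Slc18a2 at 0.28 ± 0.06 (SD, n = 3). The median of the 8 genes was 0.29, and 7 of 8 were positive, against 48.6% of all features. These values rested in part on single pairs: the median was 0.52 without pair 11, Th was at 1.01 without pair 11 and 0.33 without pair 15, and Slc18a1 went from 0.29 to 0.03 without pair 13. No gene passed in limma, where 0% of features did, and none of the 8 passed in the ordinary linear model. At the unadjusted limit of 0.05, Pnmt, Cyb561, Th and Slc18a2 (4 of the 8) passed with a positive ratio, against 4.25% of all features. At 4 months with 2 copies, Pnmt was at 1.23 ± 0.61, Th at 0.91 ± 0.35, Cyb561 at 0.79 ± 0.46, Slc18a1 at 0.59 ± 0.47 and Slc18a2 at 0.46 ± 0.25 (SD, n = 3). The median was 0.53, and 8 of 8 were positive, against 48% of all features. Without pair 3 the median was 0.35 and Slc18a1 was at 0.38. Again 0% of features passed in limma and none of the 8 in the ordinary linear model, and Pnmt, Th, Cyb561, Slc18a1 and Slc18a2 (5 of the 8) passed at the unadjusted limit with a positive ratio, against 6.09% of all features.

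**Figure D3:**
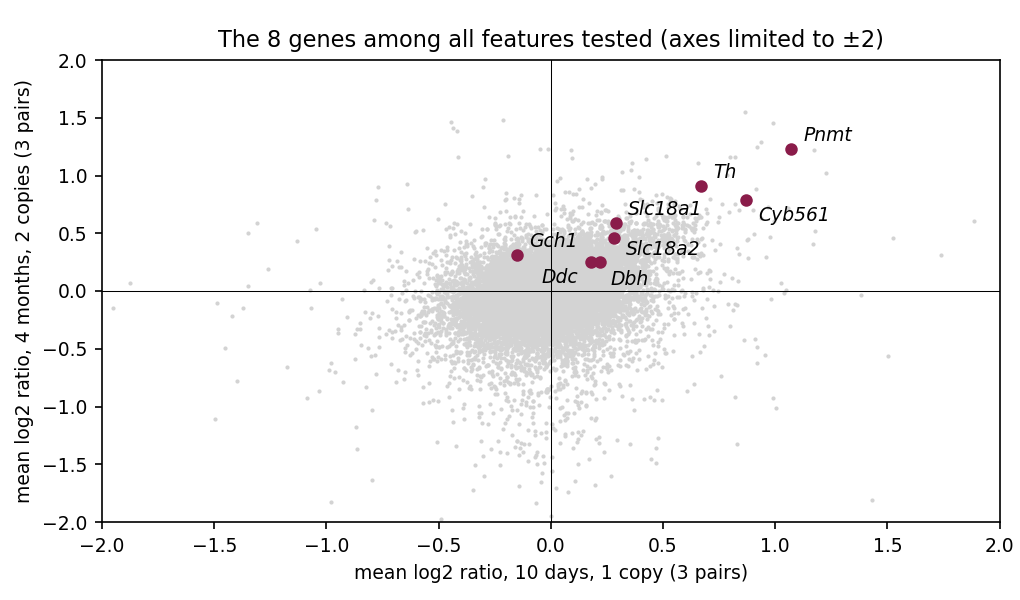
Mean log2 ratio at 10 days with 1 copy (horizontal axis) against that at 4 months with 2 copies (vertical axis), each over 3 pairs; grey points are all features tested and the named points the 8 genes, with both axes limited to ±2. Pnmt, Th and Cyb561 lie far into the upper right, at 1.07 and 1.23, 0.67 and 0.91, and 0.87 and 0.79, and Gch1 is on the negative side at 10 days.

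The difference between the groups, 4 months minus 10 days, was not resolved from 0 for any of the 8. It was largest for Gch1 (0.46, SE 0.40) and Slc18a1 (0.30, SE 0.30), and Pnmt differed by 0.16 (SE 0.31) and Cyb561 by -0.08 (SE 0.23). Adjusted p-values in limma ran from 0.936 to 1.00, with 0% of all features called and none of the 8 at the unadjusted limit or in the ordinary linear model. For none of the 8 did the 3 pairs of one group stand above those of the other, which 10.4% of all features did.

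The other genes of the pathway had ratios of both signs. Over all 6 pairs, 15.0% of all features reached the unadjusted limit in either direction, the share beside which the counts of the pathway lists stand. Of 7 listed genes of tetrahydrobiopterin synthesis and recycling, 6 were tested, 4 had a positive mean and none passed in limma over all 6 pairs, 2 reaching the unadjusted limit. The median was 0.09. Pcbd1, which recycles the cofactor after hydroxylation, was the highest at 0.42 ± 0.42 (SD, n = 6, positive in 6 of 6 pairs, adjusted p of 0.249 in limma), and Pts, the enzyme after Gch1 on the path, the lowest at -0.22 ± 0.28 (SD, n = 6). Of 17 subunits and accessory proteins of the vesicle proton pump, 16 were tested, 6 were positive and none passed, 3 reaching the unadjusted limit, with a median of -0.04 and a range from Atp6v1h at -0.31 ± 0.34 to Atp6v0e2 at 0.38 ± 0.46 (SD, n = 6). The pump serves lysosomes in all cells as well.

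Among genes of reuptake and breakdown, 10 of 15 were tested, 5 were positive and none passed, 4 reaching the unadjusted limit. The monoamine oxidase gene Maob was the highest at 0.31 ± 0.23 and the aldehyde reductase gene Akr1a1 the lowest at -0.29 ± 0.12 (SD, n = 6), the latter negative in 6 of 6 pairs. Of 12 paralogs of the 8 genes, 11 were tested, 6 were positive and none passed, 4 reaching the unadjusted limit. Moxd1, related to Dbh, was the highest at 0.33 ± 0.11 (SD, n = 6, positive in 6 of 6 pairs). The histidine decarboxylase gene Hdc, related to Ddc, was the lowest at -0.80 ± 0.82 (SD, n = 6). That mean hides the groups: Hdc was at -1.08, -1.48 and -1.90 at 10 days and at -0.32, 0.19 and -0.18 at 4 months. Its difference between the groups was 1.38 (SE 0.24, adjusted p of 0.933 in limma). Of 14 receptors for adrenaline, noradrenaline and dopamine, 7 were tested, 4 were positive and none passed, 1 reaching the unadjusted limit, with Drd4 at 0.39 ± 0.53 and Drd5 at -0.17 ± 0.16 (SD, n = 6) at the ends.

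Of 18 transcriptional regulators of catecholamine genes, 16 were tested, 7 were positive and none passed, 4 reaching the unadjusted limit, with a median of -0.05. Gata3, a factor of sympathoadrenal development, was the highest at 0.50 ± 0.44 (SD, n = 6), from -0.16 in pair 11 to 1.03 in pair 15. Fos, an immediate early gene, was the lowest at -0.73 ± 1.30 (SD, n = 6). Egr1, an immediate early factor that can act on Pnmt, was at -1.50, 1.03 and 1.28 in pairs 11, 13 and 15. In pairs 1, 3 and 5 it was at -0.97, 1.47 and -1.28. A relation of these values to those of Pnmt was not tested. Egr1 and the glucocorticoid receptor gene Nr3c1 (-0.02 ± 0.25, SD, n = 6) were named here after their values were seen.

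The 31 tested of 35 listed markers of chromaffin cells, with the 8 genes left out, had positive means for 26 and a median of 0.26. Of these 4 passed in limma (Gal, Scg5, Stmn3 and Pcsk1), where 0.0558% of all features did. The unadjusted limit was reached by 14, all with positive ratios, against 7.52% of all features. Npy did not pass (adjusted p of 0.0875 in limma). The neuropeptide genes Gal (1.20 ± 0.30) and Npy (1.12 ± 0.52) had means as high as Pnmt, and Stmn3 (0.84 ± 0.22) and Scg5 (0.79 ± 0.15) as high as Cyb561 (SD, n = 6, each positive in 6 of 6 pairs), while the granin gene Chga was at -0.17 ± 0.26. The genes of this list were named after their values were seen. The median of all 31 tested markers was 0.15, 0.32 and 0.40 in pairs 11, 13 and 15 and 0.13, 0.42 and 0.31 in pairs 1, 3 and 5. In adrenal RNA, a different number of chromaffin cells and a different amount of RNA per cell cannot be told apart, in whichever direction the ratio runs. Pnmt exceeded the median of the list, as did several of its own genes, in 6 of 6 pairs by 0.86 ± 0.35 and Cyb561 by 0.54 ± 0.28 (SD, n = 6), Th in 5 of 6 by 0.50 ± 0.43, and Slc18a2 in 5 of 6 by 0.09 ± 0.17. Ddc, Dbh and Gch1 lay on both sides of it, at -0.07 ± 0.29, -0.05 ± 0.48 and -0.21 ± 0.58 (SD, n = 6), as did Slc18a1 at 0.15 ± 0.40.

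Lists of other cells differed from 0 as well, in single pairs or across several. The adrenal cortex markers (11 of 17 tested, 4 positive) had medians from -0.44 in pair 11 to 0.20 in pair 15 at 10 days, and from -0.38 in pair 1 to 0.58 in pair 3 at 4 months. Pairs 11 and 1, the lowest for the cortex list, were also the only ones in which Dbh was negative. The cortex genes did not move together in pair 1, where they ran from -1.41 for Cyp21a1 to 1.48 for Star. A relation of Dbh to the cortex list was seen after the values were known and was not tested. The hepatocyte list (9 of 10 tested) had its highest median in pair 11, 1.42, with Alb at 6.73, the adipocyte list (7 of 8) in pair 15, 1.04, and the lymphocyte (9 of 10) and macrophage (9 of 10) lists their lowest in pair 3, -2.36 and -1.37. In the other pairs the lymphocyte median lay between -0.18 and 0.01 and the adipocyte median between -0.23 and 0.26. The hepatocyte median lay between 0.00 and 0.48 in the pairs other than pair 11. The macrophage median was also negative in the other 4-month pairs, -0.18 in pair 1 and -0.50 in pair 5. At 4 months 9 of 9 macrophage genes were negative (median -0.81) and 6 reached the unadjusted limit, against 12.3% of all features in either direction. Of the lymphocyte list 8 of 9 were negative there (median -0.94), and H2-Ab1 was negative in 5 of 6 pairs. The 4-month lymphocyte means rest largely on pair 3, since the list median was -0.13 in pair 1 and -0.18 in pair 5. The hepatocyte genes Ahsg, Fga and Ttr were positive in 6 of 6 pairs, which held for 5.67% of all features. Of the rest of that list, Apoa1 was positive in 5 pairs, Alb, Fgb and Tat in 4, and Apoa2 and Cyp2e1 in 2. Pair 11 was the lowest pair for Th, Ddc, Dbh and Gch1, pair 15 the highest for Th, Ddc and Dbh, and pair 3 the highest for Gch1, Cyb561 and both transporters. The part of other tissue in these values was not tested. Without pairs 11, 15 and 3, Pnmt was at 1.16, Th at 0.83, Cyb561 at 0.74, Slc18a1 at 0.60, Slc18a2 at 0.33, Dbh at 0.19, Gch1 at 0.07 and Ddc at 0.05, and again none of the 8 passed. The Schwann cell list (4 of 8 tested) lay between -0.23 and 0.24, and the list of cholinergic nerve endings (4 of 4) between 0.00 and 0.25.

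**Figure D4:**
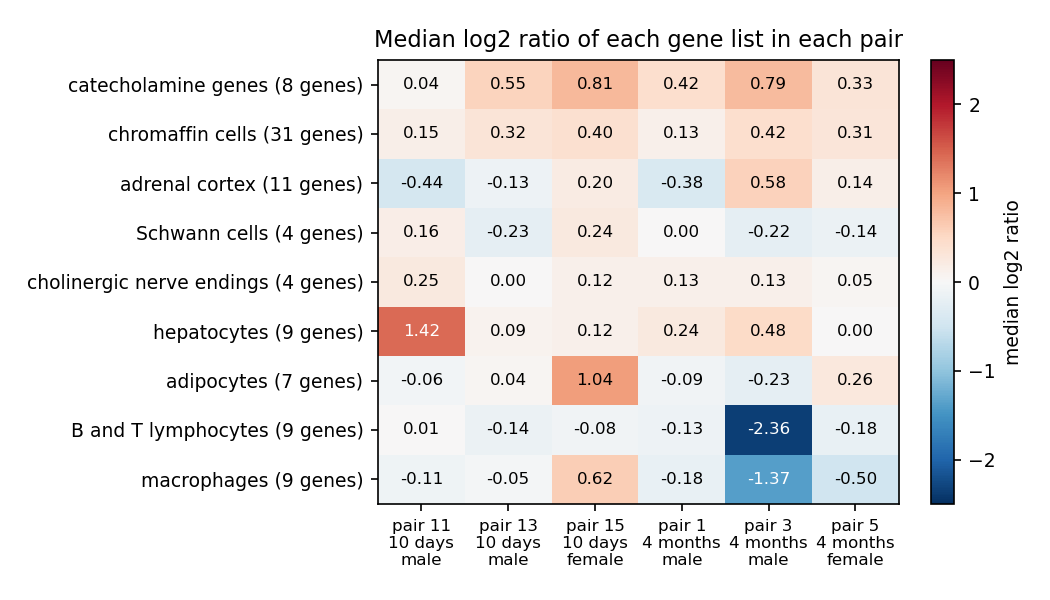
Median log2 ratio of the 8 catecholamine genes and of each marker list (rows, with the number of genes tested) in each pair (columns), coloured from blue (negative) to red (positive). The catecholamine row runs from 0.04 in pair 11 to 0.81 in pair 15, and the hepatocyte, adipocyte and immune lists stand out in pairs 11, 15 and 3.

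Likeness to a gene was measured as the root mean square difference over the 6 pair values, for 17047 other genes measured in all pairs. The 5 genes closest to Pnmt were Slc35d3 (0.448), Samt3 (0.453), Th (0.48), Necab2 (0.527) and Srl (0.528). Of the other catecholamine genes, Cyb561 was at rank 19 (0.63), Slc18a1 at rank 105 (0.803), Slc18a2 at rank 235 (0.868), Dbh at rank 840 (1.01), Ddc at rank 1203 (1.04) and Gch1 at rank 9517 (1.27). Closest to Th were Gata3 (0.309), Rnaset2b (0.349), which has a near-identical copy in the genome, Sema5a (0.36), Cap1 (0.365) and Scg5 (0.373). Gata3 was at -0.16, 0.43 and 1.03 at 10 days and 0.20, 0.60 and 0.91 at 4 months. Its likeness to Th is given by the selection, which used these same 6 values.

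The calls depended on how arrays were treated as replicates. When all 12 arrays were fitted with a dye term and the pair as a random block, 4 of the 8 passed over all 6 pairs, Cyb561 (adjusted p of 0.00106), Pnmt (0.00107), Th (0.00446) and Slc18a2 (0.0219) in limma, together with 769 features in all. The means of the 8 genes were the same in that fit, and the 2 arrays of a pair share their RNA, so it counts technical repeats in part as separate measurements. Without pair 5, Cyb561 passed at 0.95 (adjusted p of 0.045 in limma).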

How the data were processed

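Adrenal RNA of 6 pairs of mice was measured on 12 two-colour arrays of 25344 spots. The deposited values are log2 ratios; for the authors' scanner, background correction and normalization, no label or file header gives an account (not given in the sources used here). Array medians as deposited ran from -0.68 to 1.50 and followed the dye, and 4.3% to 6.59% of spots were empty. On the 6 arrays whose Cy3 channel held the transgenic RNA, 2 raised to the value was a ratio of whole numbers for 100% of spots, which gave a spot signal up to a common factor. The ratios of every array were regressed on this signal by loess (span 0.3) and the residuals kept, probes of a gene were averaged, and both arrays of a pair were averaged. Of the probes, 21082 had 1 gene in the platform annotation, 30 several and 4232 none; 20456 were matched to RefSeq (GRCm38.p6) by gene ID.

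Features with a value in at least 2 pairs per group were fitted in limma 3.58.1 (R 4.3.3) with a mean per group, two-sided, with 4 residual and 3.85 prior degrees of freedom and Benjamini-Hochberg adjustment over all 21513 features at 0.05. Pairs are separate mice, and their number limits the precision. The steps were tested on simulated data. Named were the 8 genes, the highest and lowest gene of each pathway list, and the 5 genes closest to Pnmt and to Th. The genes, lists and tests were chosen with earlier results of these data known. Alternatives were other corrections, orientations, filters, models and left-out pairs.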

Additional observations from a re-analysis of the deposited data

Results flagged for a closer look

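Maoa, which encodes a monoamine oxidase that breaks down catecholamines, was positive in each of the 3 pairs at 10 days (0.05, 0.19 and 0.29) and negative in each at 4 months (-0.99, -0.60 and -0.42). The difference of -0.85 (SE 0.18) had an adjusted p of 0.933 in limma over all features. Atp6ap2, an accessory protein of the vesicle proton pump, split in the same way with small ratios, 0.15, 0.03 and 0.06 at 10 days against -0.02, -0.04 and -0.21 at 4 months, a difference of -0.17 (SE 0.14, adjusted p of 0.933 in limma). Both were picked out among all tested genes of the pathway lists after their values were seen. In 10.4% of the features measured in all pairs, the 3 pairs of one group stood above the 3 of the other, either way. Other genes of the lists, Hdc among them, split without overlap as well.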

How the results depend on the processing

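Over 18 alternatives, 552 of 576 values of the 8 genes kept their sign, and Pnmt, Th, Cyb561, Slc18a1 and Slc18a2 had a positive mean in every one of them over all 6 pairs, at 10 days and at 4 months. Many of these signs could not change. The means of the 8 genes stayed the same with sex as a term, in the ordinary linear model and in the array-level fit. They also stayed the same under the filters on measured pairs and dim probes and with the brightest probe of each gene. Leaving out a pair of one group could not move the mean of the other. Their sizes moved with single pairs: Slc18a1 ran from 0.03 to 0.46 at 10 days and from 0.38 to 0.85 at 4 months, and Th from 0.33 to 1.01 at 10 days. No paired analysis was possible because the groups share no replicate number; the pairing of transgenic with wild-type mice is in the ratio itself. Over all 6 pairs, 3 of the 8 genes passed on arrays whose transgenic RNA was in Cy3 alone (1411 features in all), 3 on those with it in Cy5 alone (3439 features) and 4 in the array-level fit (769 features); a single orientation also holds the dye effect of each probe. At 10 days these counts were 0 (31 features), 1 (222) and 2 (69), and at 4 months 1 (288), 1 (915) and 3 (285). The number of features called over all pairs was 12, and 0 with array medians in place of loess, with sex as a term or without pairs 11, 15 and 3 (an alternative chosen after seeing the data), and 1 in the ordinary linear model. Leaving out single pairs gave 0 to 15 features (0 without pair 13, 15, 1 or 3, and 4 without pair 11) and 0 to 1 of the 8 genes over all pairs, 0 to 1 feature at 10 days and 0 to 5 at 4 months.

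Leaving out single pairs moved Gch1 between -0.07 and 0.28 over all pairs and between -0.46 and 0.25 at 10 days, Ddc at 10 days between -0.10 and 0.34, Dbh between -0.11 and 0.65 at 10 days and -0.04 and 0.50 at 4 months. It moved the difference between the groups of Th between -0.10 and 0.58, of Ddc between -0.09 and 0.35, of Dbh between -0.40 and 0.35, of Pnmt between -0.11 and 0.49 and of Cyb561 between -0.30 and 0.16. With array medians Gch1 was at -0.07 over all pairs and the group difference of Cyb561 at 0.09. With Cy5 arrays alone the group difference was -0.07 for Dbh and 0.07 for Cyb561. Without pairs 11, 15 and 3 together, Ddc was at -0.06 and Gch1 at 0.04 at 10 days, Dbh at -0.04 at 4 months, and the group difference at -0.46 for Dbh, -0.44 for Slc18a1 and -0.02 for Slc18a2. The cause of these shifts was not tested. Signal over background is unknown, so no limit can be set on dim spots.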
